A study of Homo sapiens with 6 samples.

Results

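Fucosyltransferases, sialyltransferases and the enzymes that build mucin-type O-glycans were compared between HPSE-knockdown and control SW480 cells. The 48 genes were taken by symbol: fucosyltransferases, protein O-fucosyltransferases, polypeptide GalNAc transferases, core and branching enzymes, chain extension enzymes and sialyltransferases. Of the 48, 38 had a row of their own among the 59192 features of the deposited table, and the 35 of these that averaged 10 or more normalized counts were tested.

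SW480 is a human colorectal adenocarcinoma line. SW480-45, the label of the HPSE-knockdown line, and the control SW480-NC were each sequenced in 3 libraries (replicates 1 to 3) from independent experiments. The knockdown line that was sequenced is named SW480-KD1 in the paper, and consists of SW480 cells with stable Cas9 that received a lentiviral guide RNA against HPSE with EGFP, and SW480-NC received a control guide on the same vector; the labels do not spell out that SW480-45 is SW480-KD1, or whether either line is 1 clone. HPSE encodes heparanase, which cleaves heparan sulfate. As 1 knockdown line was sequenced, the loss of HPSE and any other difference between the 2 lines cannot be told apart.

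Glycosyltransferases of the Golgi apparatus add sugars one at a time to proteins and lipids. Mucin-type O-glycosylation starts when a polypeptide GalNAc transferase adds N-acetylgalactosamine to a serine or threonine; core and branching enzymes extend this sugar, chain extension enzymes add galactose and N-acetylglucosamine, and sialic acid or fucose caps the chain. Colon epithelium makes large amounts of such glycans on its mucins. Sialyl Lewis a and sialyl Lewis x, the fucosylated and sialylated caps bound by selectins, are known from colorectal cancer cells.

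The libraries held 33221323 to 39802365 reads on the features. The paper judged the knockdown by HPSE protein on western blots, and RNA counts do not measure protein. In RNA, HPSE had 136, 172 and 146 normalized counts in SW480-45 and 269.9, 295 and 246 in SW480-NC. Of the control mean 56.1% was left, and the 2 lines did not overlap. Its log2 fold change, always given as SW480-45 minus SW480-NC on the log2(normalized count + 1) scale, was −0.83 (standard error 0.14, adjusted p = 0.0547 from limma), and the exact two-sided permutation test gave p = 0.1, the lowest that 3 against 3 libraries allow. Epithelial markers summed to 111278 to 119777 normalized counts in SW480-45 and to 128944 to 136556 in SW480-NC over 6 of 8 genes with a row, while KRT18 and CDH1 had none, and most of the sum was KRT8. Of these 6 genes 5 had a lower estimate in SW480-45, with 1, the keratin gene KRT20, at an adjusted p under 0.05 (it fell by 0.81, adjusted p = 0.00719 from limma). VIL1, the gene of the microvillus protein villin, went the other way without overlap, at 8921, 9508 and 8854 normalized counts in SW480-45 and 7576, 7606 and 8524 in SW480-NC (0.20, adjusted p = 0.225 from limma). Endothelial markers summed to 28.0 to 43.2 and 12.6 to 26.5 over 3 of 4 genes, with CDH5 at 0 in 5 of 6 libraries. Fibroblast markers summed to 279.8 to 387 and 229 to 264 over 4 of 6 genes, most of it COL1A1. The leukocyte sum was 59489 to 62237 and 67214 to 71989 over 3 of 5 genes; it came from LYZ, while CD14 was at 28.97 to 46.7 in the 6 libraries. The part of these marker differences in the results that follow was not tested.

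FUT3, the Lewis gene, encodes the fucosyltransferase that completes Lewis a and sialyl Lewis a. It lies at chr19:5842888-5851474 on the minus strand of GRCh38 (GENCODE 29), beside FUT6 (chr19:5830610-5839731) and FUT5 (chr19:5865826-5870540). As these 3 genes are close copies, the part of FUT3 in which its coding sequence differs most from both, and the part in which all 3 are alike, are shown from the reference transcripts, on the minus strand and read 5′ to 3′. Capitals mark bases of FUT3 that differ from either copy and, in the lines of the copies, bases that differ from FUT3.
FUT3, chr19:5844417-5844496, coding bases 344 to 423: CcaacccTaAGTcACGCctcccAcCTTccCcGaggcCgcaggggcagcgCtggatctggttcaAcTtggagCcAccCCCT
FUT5, chr19:5867264-5867343, coding bases 383 to 462: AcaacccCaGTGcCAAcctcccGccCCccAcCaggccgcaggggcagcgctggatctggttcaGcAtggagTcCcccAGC
FUT6, chr19:5832148-5832227, coding bases 341 to 420: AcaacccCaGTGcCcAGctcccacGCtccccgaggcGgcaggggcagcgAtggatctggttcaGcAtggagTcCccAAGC
Each copy differed from FUT3 at 20 of the 80 bases of this stretch. In another stretch of 80 bases, further along the transcript, the 3 genes were identical:
FUT3, chr19:5844309-5844388, coding bases 452 to 531: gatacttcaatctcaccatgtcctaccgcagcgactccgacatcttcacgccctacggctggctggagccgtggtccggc
FUT5, chr19:5867156-5867235, coding bases 491 to 570: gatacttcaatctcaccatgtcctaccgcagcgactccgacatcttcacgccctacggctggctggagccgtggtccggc
FUT6, chr19:5832040-5832119, coding bases 449 to 528: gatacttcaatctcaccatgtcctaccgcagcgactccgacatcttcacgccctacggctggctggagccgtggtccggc

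Over the whole coding sequence, 1020 of the 1086 bases of FUT3 (93.9%) were identical in FUT5 and 980 of 1078 aligned bases (90.9%) in FUT6. Of the 50-base stretches of the FUT3 transcripts, 16.2% also occurred in another gene, 394 of them in FUT5 and 325 in FUT6. A read from an identical stretch could be counted for any of the copies, and how such reads were assigned is not stated in the sources used here. The count of FUT3 is therefore uncertain. Exons of AC024592.2 also overlap it on the other strand. The paper also measured FUT3 by qRT-PCR and reports a result in accordance with its RNA-seq. Both primers it lists match FUT3 with 0 mismatches. Against the coding sequences of FUT5 and FUT6, the forward primer has 2 mismatches and the reverse primer 8. FUT5 had no row of its own, and FUT6 had 0, 9 and 12 reads in SW480-45 and 2, 0 and 0 in SW480-NC.

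In the test, 0 of the 35 members passed an adjusted p under 0.05 with limma, where 0.802% of all 21703 features did. EdgeR on the recovered reads also called 0 members, against 0.627% of all features, and DESeq2 called 3 (FUT3, B3GNT7 and B3GNT5), against 4.55% of the 16618 features to which it gave an adjusted p. At an unadjusted p under 0.05 there were 9 members with limma (25.7%), where 16.2% of all features had one. When only features with a mean of at least 50 were fitted, 19.8% of them had one. With Ensembl identifiers alone it was 18.7%, and the 9 members were the same in both fits. FUT3 and GCNT3 were the 2 with a higher level in SW480-45 (5.71% of members, background 8.1%). The 7 with a lower level (20.0%, background 8.15%) were B3GNT7, GALNT3, B3GNT5, FUT8, POFUT1, ST3GAL1 and ST3GAL4. This count depended on the scaling. After quantile normalization 6 members (17.1%) had an unadjusted p under 0.05 with limma, where 15.4% of all features had one. POFUT1, ST3GAL1 and ST3GAL4 were then not among them. No background by direction was made for features with a mean of at least 50. In these mixed RNA samples, fewer expressing cells and less RNA per cell cannot be told apart.

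The 3 libraries of each line did not overlap for 10 members (28.6%), near the 23.4% of all features. The median log2 fold change was −0.06 over the 35 members, with 23 lower and 12 higher, and −0.0048 over all features, of which 50.7% were lower. FUT3 was the only member that differed by at least 2-fold. Of all 21703 features 1094 did, and of the 14365 averaging 50 or more normalized counts 250 did. A difference under 0.25 on the log2 scale, in either direction, was seen in 25 of the 35 members. It was also seen in 12550 of all 21703 features and in 10035 of the 14365 averaging 50 or more. The 95% interval lay wholly within a 2-fold change in either direction for 27 of the 35 members. The same held for 14081 of all 21703 features and for 12790 of the 14365 with a mean of at least 50. The plot of differences by role shows these intervals.

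Among the genes listed as fucosyltransferases that act on terminal or core sugars, 5 of 9 could be tested, 3 with a higher and 2 with a lower estimate in SW480-45. The sugar or protein on which each enzyme acts was not tested. FUT3 had 114, 72.2 and 92.3 normalized counts in SW480-45 and 39.7, 40.6 and 47.7 in SW480-NC, from 108, 80 and 98 and from 38, 42 and 45 reads. Every SW480-45 library lay above every SW480-NC library. The means were 92.8 ± 20.8 (SD, n = 3) and 42.7 ± 4.38 (SD, n = 3), a log2 fold change of 1.08 (standard error 0.22, unadjusted p = 0.00136, adjusted p = 0.0869 from limma), and the exact two-sided permutation test gave p = 0.1, the lowest possible. FUT3 is one of the genes the study picked as upregulated in these same libraries, so its direction here is not independent evidence. Its adjusted p was 0.110 to 0.261 in the 6 leave-one-out fits, each made without 1 library, with an unadjusted p under 0.05 in all 6. With DESeq2 the log2 fold change was 1.12 (adjusted p = 0.0112).

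FUT8, which adds the core fucose of N-glycans, had 772, 739.7 and 718 normalized counts in SW480-45 and 873, 909.8 and 839 in SW480-NC. The 2 lines did not overlap, and the log2 fold change was −0.23 (standard error 0.086, unadjusted p = 0.0275, adjusted p = 0.247 from limma). Annotated exons of FUT8-AS1 overlap it on the other strand, and the strand setting of the counting is not stated, so reads of the 2 genes cannot be told apart. FUT8 kept an unadjusted p under 0.05 in 2 of the 6 leave-one-out fits.

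FUT1 and FUT2 encode the enzymes that make the H antigen, FUT2 in secretory epithelium. FUT2 had 68.5, 74.1 and 65.9 normalized counts in SW480-45 and 45.0, 34.8 and 76.3 in SW480-NC, with replicate 3 of SW480-NC above all others (log2 fold change 0.49, 95% interval −0.20 to 1.17, adjusted p = 0.456 from limma). Without that library the difference was 0.80 (unadjusted p = 0.0108, adjusted p = 0.171 from limma), and without SW480-NC replicate 2 it was 0.24. FUT1 (0.11) and FUT11 (−0.06) differed little, with adjusted p of 0.811 and 0.840 from limma. In normalized counts per kilobase of annotated exon, FUT11 was the most abundant of the genes listed in this group, at 159 ± 14.2 in SW480-45 and 167 ± 22.7 in SW480-NC (SD, n = 3). FUT8 followed, at 111 ± 4.05 and 130.4 ± 5.30 (SD, n = 3). FUT3 reached 29.9 ± 6.70 and 13.7 ± 1.41 (SD, n = 3), which placed it above FUT2 in SW480-45 and below it in SW480-NC, where the SDs of the 2 genes overlapped.

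The protein O-fucosyltransferases POFUT1, which modifies the EGF repeats of Notch, and POFUT2, which modifies thrombospondin repeats, were both tested. POFUT1 had 3738, 3742 and 3705 normalized counts in SW480-45 and 4101, 4169 and 4232 in SW480-NC. The libraries within a line were closer to each other than for any other tested member, and the lines did not overlap, although the difference was small, −0.16 on the log2 scale (standard error 0.060, unadjusted p = 0.0292, adjusted p = 0.251 from limma). POFUT1 kept an unadjusted p under 0.05 in 1 of the 6 leave-one-out fits. It did not keep it after quantile normalization, where the difference was −0.10 (adjusted p = 0.428 from limma). POFUT2 differed by 0.02 (95% interval −0.23 to 0.27).

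Of the polypeptide GalNAc transferases, which start O-glycans, 8 of 13 were tested, and 7 had a lower estimate in SW480-45, of which 3 had a higher one after quantile normalization. The exception was GALNT14, at 0.0050. GALNT3, one of the most abundant members, had 3496, 3232 and 2489 normalized counts in SW480-45 and 4102, 4338 and 3702 in SW480-NC. Replicate 3 was the lowest library of each line, and the lines did not overlap. The log2 fold change was −0.41 (standard error 0.13, unadjusted p = 0.0158, adjusted p = 0.204 from limma), and −0.26 without SW480-45 replicate 3 (adjusted p = 0.264 from limma).

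The other 7 GalNAc transferases lay between −0.10 and 0.0050, and all 7 overlapped between the lines. GALNT2, GALNT6, GALNT7 and GALNT12 differed by −0.03, −0.02, −0.04 and −0.06, each with a 95% interval inside a 2-fold change. With quantile normalization GALNT2, GALNT6 and GALNT7 had estimates of 0.028, 0.027 and 0.0062, and GALNT14 turned to −0.048 in a leave-one-out fit, so these directions depend on the scaling or on 1 library. GALNT5 had 5, 0 and 5 reads in SW480-NC and 0 in each library of SW480-45, where a count of 0 allows up to 3 reads, and it was not tested.

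C1GALT1, the core 1 synthase that adds galactose to the first sugar, had 1671, 1636 and 1610.1 normalized counts in SW480-45 and 2233, 2018 and 1531 in SW480-NC. Replicate 3 of SW480-NC lay below every SW480-45 library, and the lines differed by −0.22 (limma, adjusted p = 0.475). Without that library it was −0.37 (adjusted p = 0.118 from limma). C1GALT1C1 (Cosmc), the chaperone that core 1 synthase needs, differed by −0.07 (95% interval −0.26 to 0.12).

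Of the branching enzymes, GCNT3 makes the core 2 and core 4 branches of mucins. GCNT3 had 488, 548 and 539 normalized counts in SW480-45 and 432, 229 and 423 in SW480-NC. All SW480-45 libraries were higher, but replicate 2 of SW480-NC stood well below the other two. The log2 fold change was 0.59 (standard error 0.24, unadjusted p = 0.0390, adjusted p = 0.282 from limma), and without SW480-NC replicate 2 it was 0.29 (adjusted p = 0.398 from limma). GCNT2, which branches polylactosamine into the I antigen, lay between 660.2 and 723 in SW480-45 and between 636 and 652 in SW480-NC, also without overlap, a difference of 0.10 (adjusted p = 0.605 from limma). GCNT1, the core 2 enzyme of most tissues, ranged from 29.3 to 106 without order by line. B3GNT6, the core 3 synthase of normal colon, had 4, 2 and 15 reads in SW480-45 and 2, 0 and 6 in SW480-NC and was not tested.

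The chain extension enzymes held 2 of the members with the lowest unadjusted p. B3GNT7 (chr2:231395543-231401164, plus strand) adds N-acetylglucosamine to growing chains, keratan sulfate among them. It had 248, 284 and 246 normalized counts in SW480-45 and 406, 364 and 397 in SW480-NC. The lowest control library lay well above the highest knockdown library. The means were 259 ± 21.8 (SD, n = 3) and 389 ± 21.9 (SD, n = 3), a log2 fold change of −0.58 (standard error 0.11, unadjusted p = 0.00110, adjusted p = 0.0814 from limma). B3GNT7 had the lowest unadjusted p of all members, kept it under 0.05 in all 6 leave-one-out fits, and passed the adjusted threshold with DESeq2 (−0.58, adjusted p = 0.00859). No other annotated exon overlaps it, and 1.09% of its 50-base stretches occurred in another gene.

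B3GNT5, the enzyme that starts lacto-series glycolipids, had 705, 743 and 783 normalized counts in SW480-45 and 905, 1025 and 1716 in SW480-NC. The lines did not overlap, but replicate 3 of SW480-NC was far above the other libraries. The log2 fold change was −0.65 (standard error 0.22, unadjusted p = 0.0196, adjusted p = 0.220 from limma) and −0.37 without that library (adjusted p = 0.172 from limma). With DESeq2 it was −0.71 (adjusted p = 0.0345). MCF2L2 has annotated exons that overlap B3GNT5 on the other strand, so a share of its reads may belong to that gene.

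The other 4 tested chain extension enzymes differed less. B3GNT2, which lengthens polylactosamine, and B3GNT3, which extends core 1, differed by −0.08 and −0.19. B4GALT1, the galactosyltransferase of lactosamine units, had 2427 to 2525 normalized counts in SW480-45 and 2289.9 to 2355 in SW480-NC, with no overlap and a difference of 0.10 (adjusted p = 0.482 from limma). B4GALT4 differed by −0.10 (adjusted p = 0.591 from limma).

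**Figure D1:**
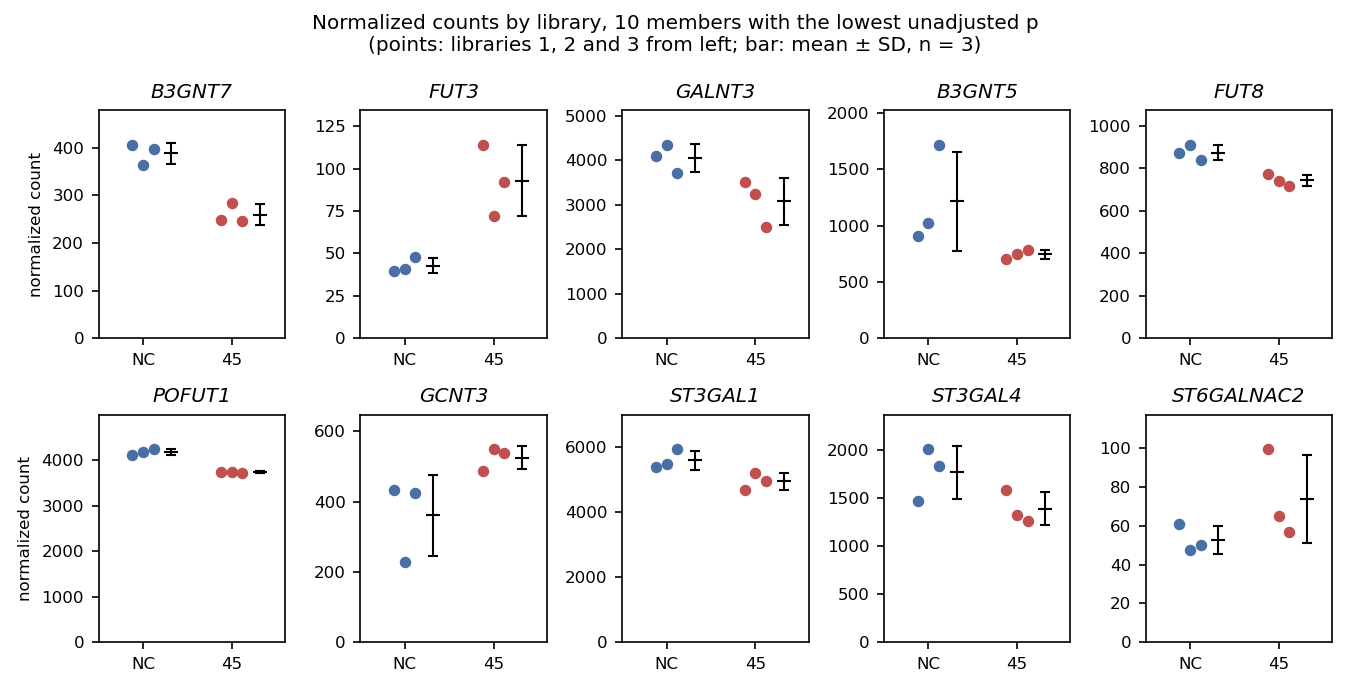
Normalized counts in each library (replicates 1, 2 and 3 from left; blue SW480-NC, red SW480-45) for the 10 members with the lowest unadjusted p, with the mean ± SD (n = 3) beside them, on axes that start at 0. The lines do not overlap in 8 panels; ST3GAL4 and ST6GALNAC2 overlap, and B3GNT5 and GCNT3 each have 1 SW480-NC library apart from the other two.

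The ST3GAL sialyltransferases attach sialic acid to galactose, and 5 of 6 were tested, 4 with a lower estimate. ST3GAL1, which caps core 1, had 4701, 5211 and 4965 normalized counts in SW480-45 and 5387, 5500.1 and 5941 in SW480-NC. The lines did not overlap, and the difference was −0.18 (standard error 0.072, unadjusted p = 0.0391, adjusted p = 0.282 from limma). ST3GAL4, which takes part in making sialyl Lewis x, had 1578, 1319 and 1261 in SW480-45 and 1463, 2002 and 1833 in SW480-NC. Replicate 1 of SW480-45 lay above replicate 1 of SW480-NC, so the lines overlapped (−0.34, standard error 0.14, unadjusted p = 0.0406, adjusted p = 0.286 from limma). Each of these 2 genes kept an unadjusted p under 0.05 in 2 of the 6 leave-one-out fits. Neither kept it after quantile normalization, where ST3GAL1 was at −0.11 and ST3GAL4 at −0.32 (adjusted p = 0.432 and 0.331 from limma). ST3GAL2 (−0.22), ST3GAL5, the GM3 ganglioside synthase (−0.29), and ST3GAL3 (0.09) overlapped between the lines, with adjusted p of 0.542, 0.677 and 0.831 from limma. All 3 depended on single libraries: ST3GAL2 was at −0.086 without SW480-45 replicate 1 and −0.12 without SW480-NC replicate 1, and at −0.34 without SW480-45 replicate 2 or SW480-NC replicate 3. ST3GAL5 was at −0.61 without SW480-NC replicate 2 (unadjusted p = 0.0431, adjusted p = 0.399 from limma) and at −0.13 and −0.14 without SW480-NC replicates 1 and 3. ST3GAL3 ranged from −0.037 to 0.26 in the leave-one-out fits.

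Of the sialyltransferases that add sialic acid to carbon 6, 4 of 5 were tested, and none reached an unadjusted p under 0.05 with limma. ST6GALNAC2, which acts on the first GalNAc, had 99.1, 65.0 and 56.5 normalized counts in SW480-45 and 60.7, 47.3 and 49.8 in SW480-NC. Replicate 1 was the highest in each line, the lines overlapped, and the log2 fold change was 0.44 (standard error 0.25, unadjusted p = 0.119, adjusted p = 0.430 from limma). Without SW480-45 replicate 1 it was 0.21 (adjusted p = 0.737 from limma). Of its 50-base stretches, 48.9% occurred in other annotated genes, so its count is uncertain. ST6GALNAC1, the sialyl-Tn enzyme (0.07), and ST6GALNAC4 (−0.06) differed little.

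ST6GAL1, which puts sialic acid on the galactose of N-glycans, had 1916, 825 and 732 normalized counts in SW480-45 and 1452, 548 and 591 in SW480-NC. In both lines replicate 1 was at least 2-fold above the other two, a pattern looked for after these values were seen. Of the 21703 features tested, 43 had it, 6 of them with an Ensembl identifier; for the other pairs of replicate numbers the count was 19 to 36. The difference between the lines was 0.43 (standard error 0.46, adjusted p = 0.678 from limma), and without SW480-45 replicate 1 it was −0.00081. With the replicate number as a block the same difference had an unadjusted p of 0.00728 and an adjusted p of 0.243 from limma. Over all features, deviations from the line means correlated at −0.020 to 0.0074 for libraries of the same number. GALNT1 was also highest in replicate 1 of both lines, at 1611, 1162 and 1268 in SW480-45 and 1865, 1278 and 1219 in SW480-NC.

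Spread between libraries of a line differed widely among members. The median within-line SD on the log2 scale was 0.168 over the 35 members, 0.232 over all features and 0.146 over features with a mean of at least 50. It was 0.84 for GCNT1, 0.77 for ST6GAL1, 0.42 for ST3GAL5 and 0.41 for FUT2. Of these 4 genes, GCNT1, ST3GAL5 and FUT2 are counted in few reads, while ST6GAL1 is not. The median half-width of the 95% interval was 0.30 for the members, 0.45 for all features and 0.29 for features with a mean of at least 50. Of the 35 members, 25 averaged 500 or more normalized counts, as did 8967 of all 21703 features.

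**Figure D2:**
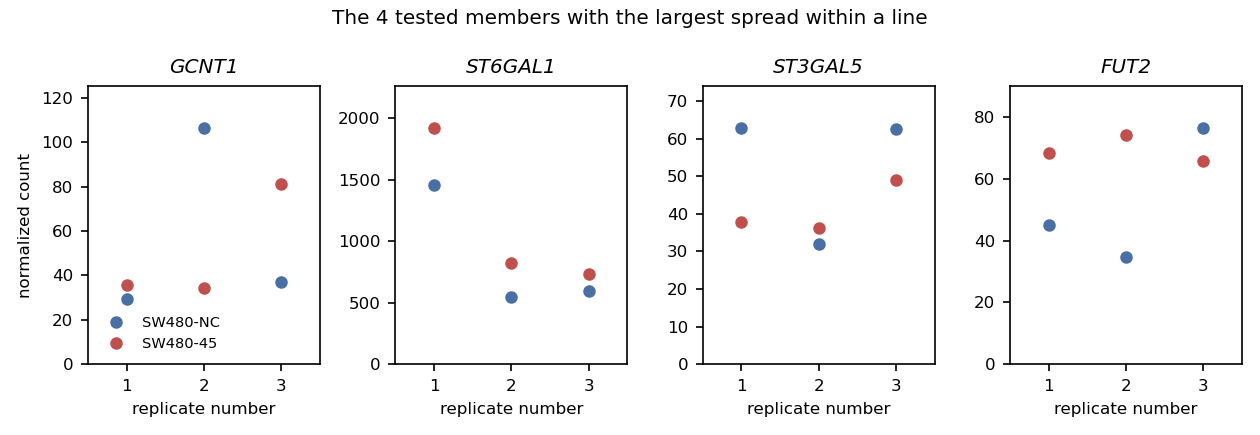
Normalized counts by replicate number (blue SW480-NC, red SW480-45) for the 4 tested members with the largest SD within a line, on axes that start at 0. For ST6GAL1 replicate 1 of both lines stands above the other libraries; for GCNT1 the high libraries are replicate 2 of SW480-NC and replicate 3 of SW480-45.

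Levels per kilobase of annotated exon spread over about the same range in both lines. The length is the union of the exons of all annotated transcripts. It was 16.3 kb for ST3GAL5, 19.5 kb for ST3GAL3 and 1.8 kb for C1GALT1C1. The order of genes and the shares below therefore depend in part on the annotation. B3GNT2 was the highest, at 1135 ± 42.8 (SD, n = 3) normalized counts per kilobase in SW480-45 and 1199.6 ± 43.3 (SD, n = 3) in SW480-NC. GALNT3 (656 ± 111 and 864 ± 68.7, SD, n = 3), C1GALT1C1 (654 ± 27.2 and 687 ± 31.0), GALNT2 (634 ± 9.96 and 647 ± 11.01) and POFUT1 (580.2 ± 3.11 and 649 ± 10.1) followed. In SW480-45, C1GALT1C1, GALNT2 and POFUT1 lay within the SD of GALNT3, so their order to it is not resolved. The lowest tested members were ST3GAL5, at 2.51 ± 0.426 and 3.21 ± 1.09 (SD, n = 3), and GCNT1, at 5.45 ± 2.87 and 6.22 ± 4.58 (SD, n = 3). Among the ST3GAL genes with a row, ST3GAL1 held 56.4% of the summed level per kilobase in SW480-45 and 54.2% in SW480-NC, and ST3GAL4 held 31.2% and 33.8%. FUT3 held 8.36% of the summed level of the genes with a row in its listed group in SW480-45 and 3.82% in SW480-NC. FUT11 held 44.6% and 46.5% of the same sums, so the share of FUT3 depends on that listing. ST3GAL6, FUT4, FUT5 and FUT10 had no row and are not in these sums.

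**Figure D3:**
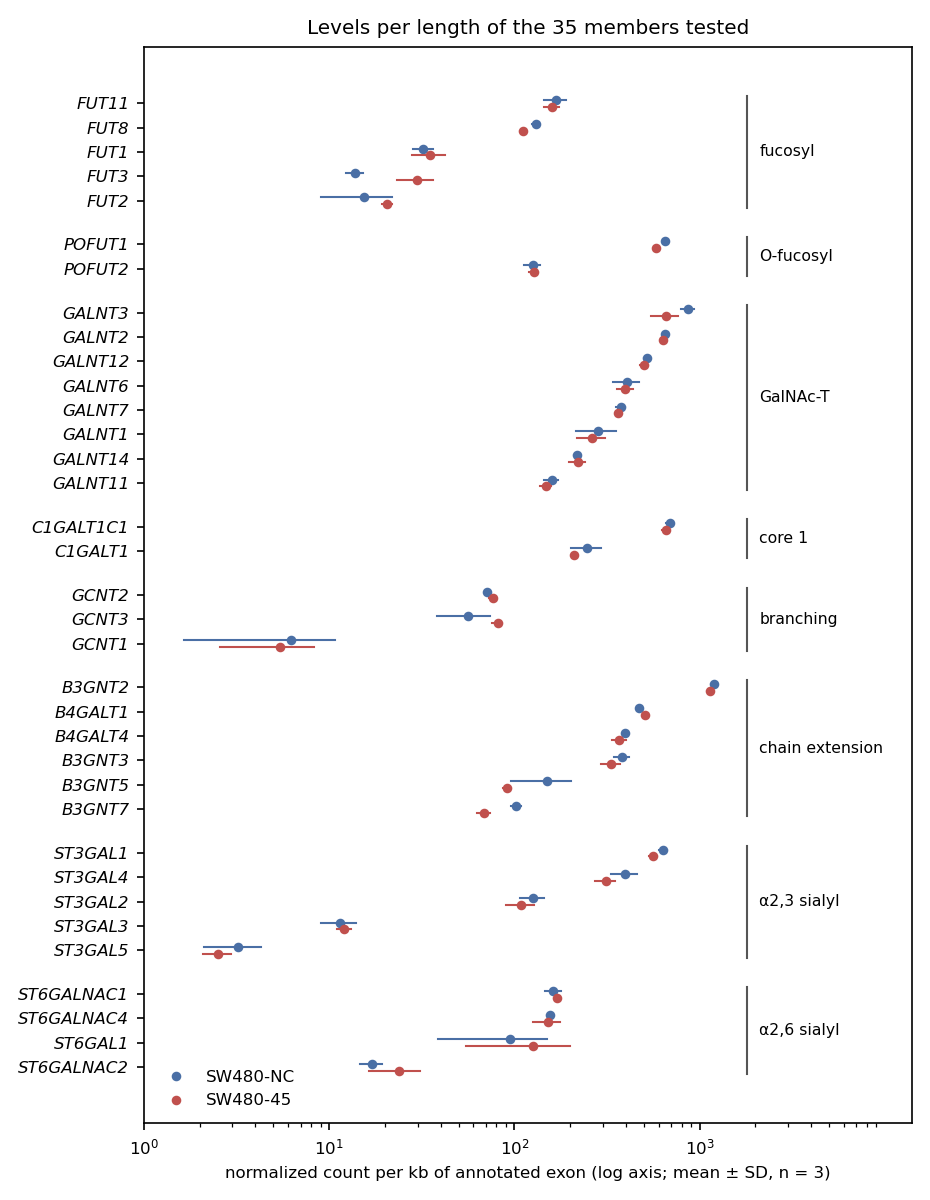
Normalized count per kilobase of annotated exon (log axis; mean ± SD, n = 3) of the 35 tested members, by role, in SW480-NC (blue) and SW480-45 (red). B3GNT2 is the highest and ST3GAL5 the lowest in both lines, and FUT3 is among the lower members. The length is the union of the exons of all annotated transcripts, so the order depends in part on the annotation.

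The 10 members without a row of their own were FUT4, FUT5, FUT10, GALNT4, GALNT8, GALNT10, GALNT18, B3GALT5, ST3GAL6 and ST6GALNAC6. Annotated exons of 8 of the 10 overlap another gene on the same strand; GALNT18 and B3GALT5 have no such overlap. The table also holds 33265 loci named by a transcript assembler with no gene name, and reads of these 10 genes may lie there, so no value is given for them. FUT4, a myeloid-type fucosyltransferase that can make Lewis x, and B3GALT5, which makes the type 1 chain that FUT3 fucosylates, are among them. Of the 38 members with a row, 18 have exons that overlap another gene, 3 of them (POFUT1, ST3GAL3 and ST6GALNAC2) on the same strand.

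Of 86 related genes, 62 had a row and 48 were tested, 25 with a higher and 23 with a lower estimate in SW480-45. None passed an adjusted p under 0.05 with limma or edgeR, 6 (12.5%) had an unadjusted p under 0.05, 4 of them higher, and 2 (4.17%) passed with DESeq2 (GNE and B3GNT4). The 12.5% is below the 16.2% of all features. The 4.17% is over all 48 genes, while the 4.55% of all features is over the 16618 given an adjusted p by DESeq2. These last 2 shares have unlike bases and are not compared. In nucleotide sugar synthesis and Golgi import, all 16 tested genes of 18 were split into 8 higher and 8 lower, with 3 higher and 1 lower at an unadjusted p under 0.05. GNE, the first enzyme of sialic acid synthesis, had 740.2, 789 and 847 normalized counts in SW480-45 and 551, 621 and 586 in SW480-NC, without overlap (0.43, standard error 0.098, adjusted p = 0.107 from limma). GMDS, the first enzyme of GDP-fucose synthesis from GDP-mannose, had 1418, 1431 and 1379 and 1129.7, 1040.2 and 1311, also without overlap (0.29, standard error 0.10, adjusted p = 0.235 from limma).

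In the group of other glycosyltransferases, 16 of 40 were tested, 7 higher and 9 lower. B3GNT4, a relative of B3GNT7, had 68.5, 77.7 and 93.3 normalized counts in SW480-45 and 48.1, 14.5 and 36.1 in SW480-NC, with no overlap and replicate 2 of SW480-NC lowest (1.40, standard error 0.42, adjusted p = 0.175 from limma). It is also in the study's list of upregulated genes, so its direction is not independent evidence. Of the 6 tested genes for removal of fucose, sialic acid or O-glycans, 4 were higher and 2 lower. The 6 tested subunits of the conserved oligomeric Golgi complex, which keeps these enzymes in place, lay between −0.0084 and 0.15, and the 4 tested genes of sulfation and acetylation between −0.27 and 0.74, with no unadjusted p under 0.05 in either list.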

How the data were processed

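RNA of 3 SW480-45 and 3 SW480-NC libraries, made with the NEBNext Ultra RNA kit, was sequenced. The authors deposited normalized counts, a signal per feature obtained by dividing reads by 1 size factor per library. Their processing notes name bcl2fastq, HISAT2, DESeq2 and GRCh38 with no roles, and the paper names Cuffdiff. The counting tool and its strand setting are not given in the sources used here. Reads were recovered from the step between values, and 100% came out whole within 0.1 reads (33221323 to 39802365 per library).

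Features averaging 10 or more normalized counts were compared with limma 3.58.1 (R 4.3.3, intensity trend) on log2(normalized count + 1), and p-values were adjusted over all 21703 by the Benjamini-Hochberg method. EdgeR 4.0.16 and DESeq2 1.42.0 on recovered reads, other filters, scalings and pseudocounts, a replicate block and leaving out each library were alternatives. The steps were tested on simulated data. Coordinates, exon lengths and transcripts are from GENCODE 29 (GRCh38), matched by Ensembl identifier. Levels were divided by the union of annotated exons. Members and lists were chosen with earlier results of these data known. By rule, full statistics went to FUT3 and to members by unadjusted p, up to 10; up to 2 related genes per list with an unadjusted p under 0.05 were named, those with the largest change. Other values beside these were named after they were seen. Results of 2 listed genes outside the members are not reported here.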

Additional observations from a re-analysis of the deposited data

How the results depend on the processing

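Across the 16 alternatives, 22 of the 35 tested members kept their direction and 13 turned in at least 1, of which the largest estimate was that of ST6GAL1. With quantile normalization GALNT2, GALNT6 and GALNT7 turned to 0.028, 0.027 and 0.0062. In the 6 leave-one-out fits, the log2 fold changes that turned ranged from −0.00081 to 0.88 for ST6GAL1, −0.47 to 0.48 for GCNT1, −0.048 to 0.091 for GALNT14, −0.047 to 0.096 for POFUT2, −0.039 to 0.26 for FUT1, −0.23 to 0.096 for GALNT1, −0.16 to 0.075 for ST6GALNAC4, −0.15 to 0.087 for GALNT6, −0.017 to 0.11 for ST6GALNAC1, −0.037 to 0.26 for ST3GAL3 and −0.18 to 0.020 for FUT11.

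With DESeq2, 3 members passed the adjusted threshold, 1 of them (FUT3, 1.12) with at least a 2-fold change, and 2 related genes passed; DESeq2 called 756 features in all, limma 174 and edgeR 136, and the cause was not tested. Members with an unadjusted p under 0.05 numbered 5 (14.3%) without an intensity trend, where 14.4% of all features had one, and 4 to 8 (11.4% to 22.9%) in the leave-one-out fits, where 11.8% to 17.1% of all features had one. At an adjusted p under 0.05, 11 features passed without an intensity trend. HPSE passed the adjusted threshold at −0.83 over every feature with any value (adjusted p = 0.0451 from limma), at a mean of at least 50 (0.0460), over Ensembl identifiers alone (0.0462) and with DESeq2 (0.000948). With limma it did not pass after quantile normalization (0.0507), TMM scaling (0.0560) or a pseudocount of 5 (0.0569). It also failed without an intensity trend (0.126), with the replicate block (0.169) and with edgeR (0.0664). In the leave-one-out fits its adjusted p was 0.0777 to 0.199 from limma.

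Over all 21703 features, deviations from the line means correlated at −0.020 to 0.0074 for libraries of the same number. For libraries of different numbers it was −0.026 to 0.024. A correlation over all features cannot show whether the numbers pair the libraries for some genes only. With the replicate block, 0 members passed the adjusted threshold and 6 (17.1%) had an unadjusted p under 0.05, ST6GAL1 newly among them; over all features, 12 passed the adjusted threshold and 13.4% had an unadjusted p under 0.05. FUT3 rests on 38 to 108 reads per library, fewer than most members, and FUT6, GALNT5 and B3GNT6 were too shallow to test.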
